A study of Mus musculus with 2 samples.

Results

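The liver breaks down most amino acids with enzymes that hepatocytes make in large amounts, and 9 of these enzymes were followed here at the level of their transcripts: Tat, Hpd, Hgd, Tdo2, Sds, Gpt, Got1, Hal and Prodh. Every probe set annotated to one of these genes by symbol or Entrez ID was taken, with no use of its values. This gave 12 probe sets for 8 of the 9 genes, among 34945 probe sets with 1 gene symbol and 18193 genes in all. Sds (serine dehydratase) is not analysed here, since no probe set matched it.

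The study asked what loss of Lpcat3, the enzyme that loads polyunsaturated fatty acids into membrane phospholipids, does to lipid handling, and liver RNA was profiled on Affymetrix arrays. The L-Lpcat3 KO mice carried floxed Lpcat3 on both alleles (Lpcat3fl/fl) together with an albumin-Cre transgene, and the Flox/Flox mice carried the same floxed alleles without Cre. Albumin-Cre acts in hepatocytes, so the other cells of the liver keep the gene. Mice of both groups were 12-week-old males that ate chow and went without food for 6 hr before the liver was taken. RNA of 5 mice was pooled for each genotype and put on 1 array. There was therefore 1 value per genotype and no replicate, no test could be run, and a difference below describes these 2 pools and not the variation among mice.

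Amino acids that are not needed for protein lose their nitrogen to the urea cycle, and their carbon feeds glucose and ketone production or is oxidized. The first enzyme of each route often sets its pace, and several of these, Tat and Tdo2 above all, are textbook targets of glucocorticoids, glucagon and fasting. The genes were thus paired with a question about fasting, but both pools had fasted for the same time, and no fed liver is analysed here, so fasting itself could not be compared. What could be compared is the ratio of each enzyme between the genotypes beside that of other genes known to answer to fasting, glucocorticoids or feeding.

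Each value is a MAS5 signal, the linear brightness of a probe set after background correction, with both arrays scaled to the same trimmed mean. Signals below 76.4, the middle value of all signals on the arrays, were raised to that floor, and a gene was called measured if its brightest probe set exceeded it on at least 1 array. This left 12059 measured genes. Every ratio below is L-Lpcat3 KO over Flox/Flox on the log2 scale, and its median over all measured genes was 0.00. Across genes above the floor on both arrays the log2 signals correlated with r = 0.989, a value over genes that share the same arrays. Lpcat3 itself (1423960_at) read 1305 in L-Lpcat3 KO and 3310 in Flox/Flox, a log2 ratio of -1.34, or 2.54-fold lower. The sources used here do not say where its probes lie relative to the deleted exon, so this is a weak check of the labels.

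None of the 8 measured enzymes lay 1.5-fold apart in either direction. Among all measured genes, 4.01% were at least 1.5-fold higher in L-Lpcat3 KO (483 of 12059) and 3.14% at least 1.5-fold lower (379 of 12059). The enzymes are bright, with a main probe set above 94.8% to 99.9% of all probe sets, and bright genes differed less between the arrays (brightness depends on the probes as well as on the transcript, and is used here only to find comparable spread): of the 1400 genes at least as bright as Hal, the dimmest of the 8, 10 were 1.5-fold apart either way (0.714%). A count of 0 among 8 genes is thus close to what equally bright genes show. The log2 ratios of the enzymes ran from -0.25 for Hal to 0.20 for Gpt, with a median of -0.05; 5 were below 0 and 3 above. Below 0 also lay 49.3% of all measured genes and 53.1% of the 1400 bright genes. Under quantile normalization of the arrays Hgd crossed to 0.02, leaving 4 of the enzymes below 0 and their median at 0.00. Summed over the 8 main probe sets, the signal was 146014 in L-Lpcat3 KO and 146909 in Flox/Flox.

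**Figure D1:**
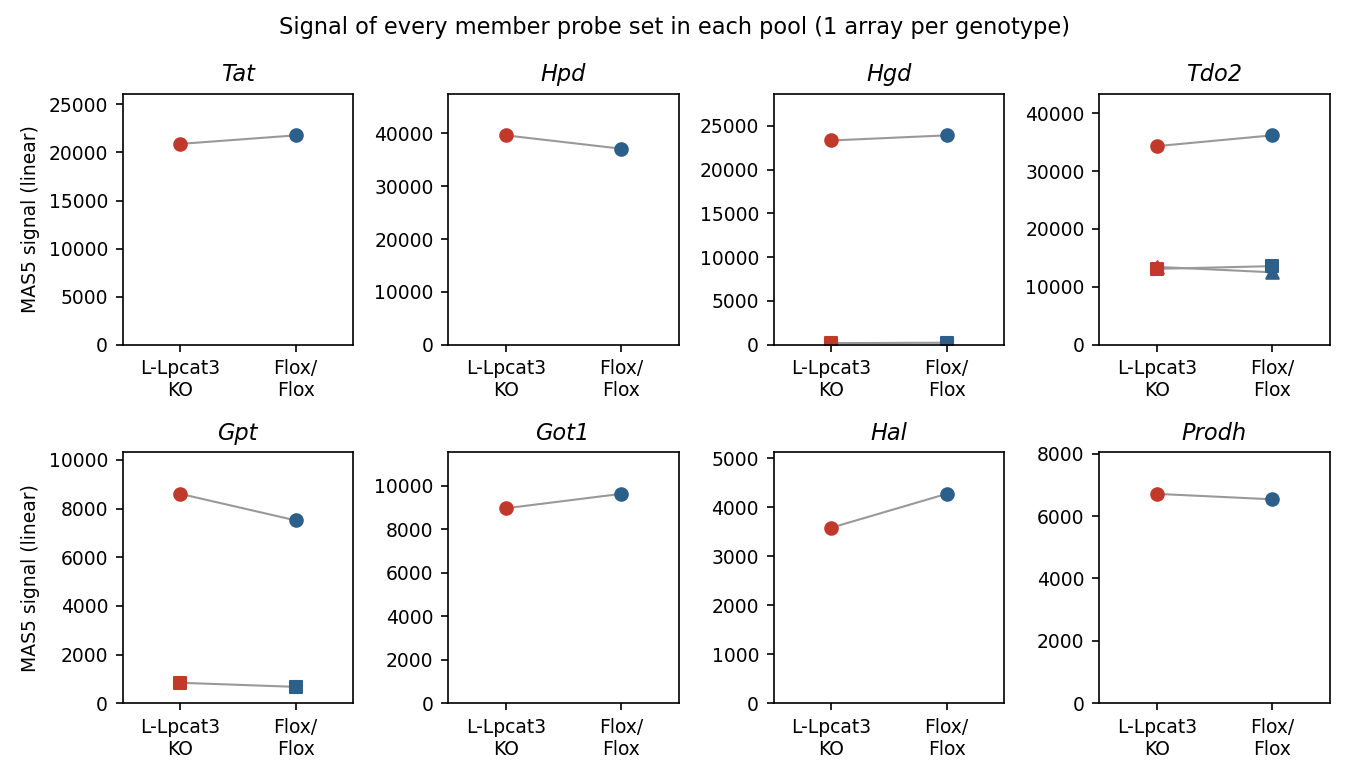
MAS5 signal (linear scale, each panel from 0) of every probe set of the 8 measured enzymes in the L-Lpcat3 KO pool (left, red) and the Flox/Flox pool (right, blue), with circles for the brightest probe set of a gene and squares and triangles for the others. The lines are close to level, and the steepest among the main probe sets are Gpt (8605 against 7514) and Hal (3581 against 4272).

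The tyrosine route begins with Tat, the tyrosine aminotransferase whose induction by glucocorticoids and cAMP made it a model of hormone-driven transcription in liver. Its probe set (1451557_at) read 20894 in L-Lpcat3 KO and 21781 in Flox/Flox, a log2 ratio of -0.06. Of the 500 measured genes nearest to Tat in signal, 59.6% had a ratio larger in size, which places Tat in the middle of genes of its brightness. Hpd, 4-hydroxyphenylpyruvate dioxygenase, makes homogentisate from the product of Tat. Its probe set (1424618_at) read 39631 in L-Lpcat3 KO and 37104 in Flox/Flox, a log2 ratio of 0.10. Hgd, the dioxygenase that opens the ring of homogentisate, read 23328 in L-Lpcat3 KO and 23913 in Flox/Flox on its main probe set (1452986_at), a log2 ratio of -0.04. Its other probe set (1458049_at) was dim, 179 in L-Lpcat3 KO and 221 in Flox/Flox, with a log2 ratio of -0.30. At that brightness the difference is common: 41.8% of the 500 probe sets nearest in signal had a larger one. The enzymes that finish the route, named for their place in it, were Gstz1, maleylacetoacetate isomerase, at a log2 ratio of 0.05, and Fah, fumarylacetoacetase, at -0.08 (23378 in L-Lpcat3 KO and 24730 in Flox/Flox). The route thus held genes on both sides of 0, and each of its 5 genes, by the main probe set, lay within 1.1-fold.

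Tdo2, tryptophan 2,3-dioxygenase, opens the ring of tryptophan and commits it to the kynurenine pathway. Its 3 probe sets did not share a sign. The brightest (1419093_at) read 34298 in L-Lpcat3 KO and 36159 in Flox/Flox, a log2 ratio of -0.08. The probe set 1455770_at gave 13096 in L-Lpcat3 KO and 13566 in Flox/Flox, a log2 ratio of -0.05, and 1449337_at gave 13438 in L-Lpcat3 KO and 12506 in Flox/Flox, a log2 ratio of 0.10. These ratios spanned 0.18 on the log2 scale. Among the 2139 genes with 2 probe sets above the 75th percentile of signal on both arrays, the ratios of the pair differed by a median of 0.14 and had opposite signs in 44.4%, so disagreement in sign among probe sets of 1 gene was common at such ratios. Further along the pathway, again named for their place, Afmid (kynurenine formamidase) stood at 0.22, Kmo (kynurenine 3-monooxygenase) at -0.04, Kynu (kynureninase) at -0.20 and Haao (3-hydroxyanthranilate dioxygenase) at 0.04. Other probe sets gave 0.05 and 0.33 for Afmid and -0.48 for Kynu. Ido2, an enzyme with a related activity, read 477 in L-Lpcat3 KO and 409 in Flox/Flox, a log2 ratio of 0.22.

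Of the transaminases, Gpt, the cytosolic alanine aminotransferase that turns alanine into pyruvate, had the highest ratio of the members. Its main probe set (1426502_s_at) read 8605 in L-Lpcat3 KO and 7514 in Flox/Flox, a log2 ratio of 0.20, or 1.15-fold higher. The second (1453216_at) read 838 in L-Lpcat3 KO and 670 in Flox/Flox, a log2 ratio of 0.32, or 1.25-fold higher. Both Gpt probe sets were higher in L-Lpcat3 KO, while a ratio larger in size was seen in 15% of the 500 genes nearest to the first in signal and in 13.6% of the 500 probe sets nearest to the second. The 2 probe sets read the same pools and are not replicates, and the suffix of the first marks a design that may match several transcripts. Gpt2, the mitochondrial paralog, read 18123 in L-Lpcat3 KO and 20207 in Flox/Flox, a log2 ratio of -0.16, with its 3 other probe sets at -0.11 to 0.05. Got1, the cytosolic aspartate aminotransferase of the malate-aspartate shuttle, read 8966 in L-Lpcat3 KO and 9629 in Flox/Flox (1450970_at), a log2 ratio of -0.10. Its mitochondrial paralog Got2 read 21236 in L-Lpcat3 KO and 21807 in Flox/Flox, a log2 ratio of -0.04, with 2 other probe sets at -0.68 and 0.16, so neither mitochondrial enzyme has a settled sign.

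Hal, histidine ammonia-lyase, removes the amino group of histidine to give urocanate and is found mainly in periportal hepatocytes. It had the lowest ratio of the main probe sets: 1418645_at read 3581 in L-Lpcat3 KO and 4272 in Flox/Flox, a log2 ratio of -0.25, or 1.19-fold lower. Among the 1400 genes at least as bright, 107 (7.65%) had a ratio larger in size, and among the 500 genes nearest in signal 11.4% did. Hal thus sat near the edge of the spread of bright genes, whose 5th percentile was -0.24. The next steps of histidine breakdown, named for their place, did not share its sign throughout: Uroc1 (urocanate hydratase) stood at 0.15 with another probe set at -0.07, Amdhd1 (imidazolonepropionase) at -0.04 and Ftcd (formimidoyltransferase cyclodeaminase) at 0.14. The periportal hepatocyte list had a median of -0.08 over 11 measured genes, with 6 below 0, and the pericentral list a median of -0.05 over 12, with 8 below 0. Ratios ran from -0.57 (Cdh1, named after its values were seen) to 0.08 in the periportal list, and from -0.19 to 0.34 in the pericentral one. The brightest gene of each was close to 0: Cyp2f2, a periportal cytochrome, stood at 0.02, and Cyp2e1, a pericentral one, at -0.02.

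Prodh, the mitochondrial dehydrogenase that starts proline oxidation, was the member with the ratio nearest to 0 but Hgd. Its probe set (1417629_at) read 6712 in L-Lpcat3 KO and 6537 in Flox/Flox, a log2 ratio of 0.04, and 77.2% of the 500 genes nearest in signal had a ratio larger in size. Prodh2, a paralog that oxidizes hydroxyproline, read 3666 in L-Lpcat3 KO and 3323 in Flox/Flox, a log2 ratio of 0.14. Aldh4a1, the dehydrogenase that follows in both routes, stood at 0.28, and Hoga1, the aldolase that ends the hydroxyproline route, at 0.05; both are named for their place.

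**Figure D2:**
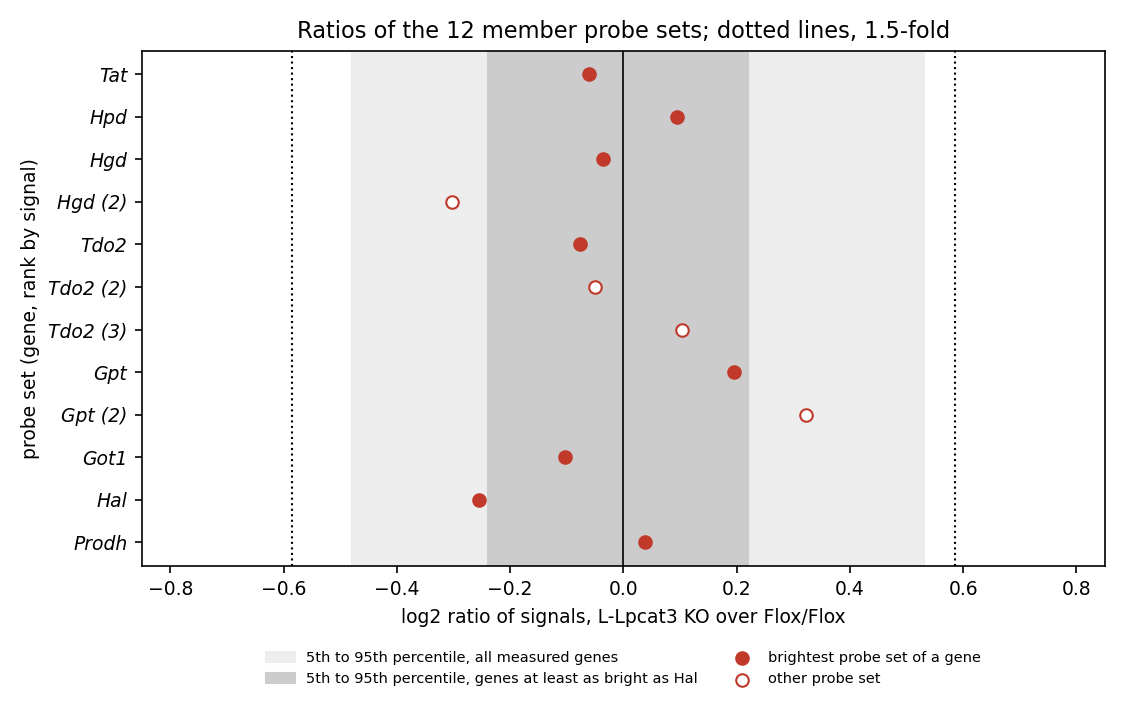
Log2 ratio of signals, L-Lpcat3 KO over Flox/Flox, for each of the 12 probe sets (filled, brightest of its gene; open, others), over the 5th to 95th percentile of all measured genes (light grey, -0.48 to 0.53) and of the 1400 genes at least as bright as Hal (dark grey, -0.24 to 0.22). No point reaches the dotted lines at 1.5-fold; outside the dark band lie Hal and the dimmer probe sets of Hgd and Gpt, which are dimmer than the genes that set that band.

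By probe set, 7 of the 12 ratios were below 0 and 5 above, while 49.3% of all measured genes were below 0. Of the 12, 8 lay within 1.1-fold, or 6 of the 8 genes by their main probe set. Within the same limit lay 42.9% of all measured probe sets, 46.2% of all measured genes, and 71.6% of the 1400 bright genes. None of the 12 was 1.5-fold apart, beside 8.02% of the 20650 measured probe sets (1656). The median size of the ratio, regardless of sign, was 0.09 for the 8 enzymes, 0.08 for the bright genes and 0.15 for all measured genes. The enzymes thus varied about as much as other genes of their brightness.

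Stretches of DNA just upstream of the start of transcription were read from RefSeq (build GRCm38.p6) for 7 of the 9 genes, all but Sds and Gpt, and searched on both strands. They were searched for the letters TGTTCT (a glucocorticoid receptor half-site), TGACG (a cAMP response element half-site), GTAAACA (a FoxO core) and TTGCNNAA (a C/EBP site). Receptors and factors that bind such letters take part in the fasting response of the liver. Whether they act on each of these genes was not tested. In the 250 bases upstream, none of the 7 held the first 3, which occur in 16.1%, 17.8% and 3.17% of all 32851 windows of this length. C/EBP letters occurred in 2 of the 7, Hal and Hgd, and in 9.56% of all windows. The windows of Hal (chr10:93488518-93488767, plus strand) and Hgd (chr16:37579903-37580152, plus strand) are shown for that match, in capitals, and that of Tat (chr8:109990186-109990435, plus strand) because its hormone response is the best known. In rats the glucocorticoid-responsive elements of Tat lie far upstream of such a window.
Hal: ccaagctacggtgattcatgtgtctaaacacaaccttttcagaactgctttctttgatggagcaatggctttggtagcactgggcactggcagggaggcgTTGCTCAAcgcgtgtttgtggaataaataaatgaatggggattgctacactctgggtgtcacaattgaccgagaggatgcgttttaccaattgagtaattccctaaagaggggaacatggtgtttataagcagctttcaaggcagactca
Hgd: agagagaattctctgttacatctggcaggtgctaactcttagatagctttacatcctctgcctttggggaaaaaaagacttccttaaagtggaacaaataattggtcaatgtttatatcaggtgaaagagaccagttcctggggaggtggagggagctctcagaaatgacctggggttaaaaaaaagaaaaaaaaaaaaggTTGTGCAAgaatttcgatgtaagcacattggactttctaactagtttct
Tat: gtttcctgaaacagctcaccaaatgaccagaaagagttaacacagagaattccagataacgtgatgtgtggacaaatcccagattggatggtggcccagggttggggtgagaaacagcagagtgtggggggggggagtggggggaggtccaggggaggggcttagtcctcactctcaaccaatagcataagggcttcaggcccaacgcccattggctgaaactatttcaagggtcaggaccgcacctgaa
A match is only a run of letters, and a window without one says nothing of elements outside it. Of the 2 genes with C/EBP letters, Hal had a log2 ratio of -0.25 and Hgd of -0.04, against -0.06 for Tat. Cebpa, which encodes the C/EBP factor of mature hepatocytes, stood at 0.02, and Cebpb, named for its induction by cAMP and fasting, at -0.10.

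The rest of amino acid degradation also lay close to 0. Over the 4 lists of other degradation enzymes together, 64 of 70 genes were measured, with a median log2 ratio of 0.04. Of these genes 38 were above and 26 below 0, and 1 was at least 1.5-fold apart by its brightest probe set. That gene was Dao, D-amino acid oxidase, named after its values were seen, which read 119 in L-Lpcat3 KO and 59.8 in Flox/Flox, the second value lying below the floor. The other aromatic list (12 genes) had a median of -0.02, which moved to 0.01 under quantile normalization, and its brightest genes were Qdpr, which regenerates tetrahydrobiopterin, at -0.07 (0.13 on its other probe set) and Fah. The list for serine, glycine, threonine, histidine, proline, alanine and aspartate (17 genes) had a median of 0.05. The branched-chain and lysine list (22 genes) had a median of 0.04, with Hibadh, of valine breakdown, at 0.01 and Aldh6a1, the methylmalonate semialdehyde dehydrogenase, at -0.15. The sulfur list (13 genes) had a median of 0.02, with Bhmt, betaine-homocysteine methyltransferase, at -0.03 (47353 in L-Lpcat3 KO and 48277 in Flox/Flox) and Ahcy, which hydrolyses S-adenosylhomocysteine, at 0.05.

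The lists of nitrogen handling and of amino acid transporters also held no gene 1.5-fold apart by its brightest probe set. A dimmer probe set of the transporter gene Slc1a2, named after its values were seen, gave -0.69, against -0.08 for its brightest. The urea cycle and ammonia list had a median of -0.05 over 10 genes, with 7 below 0. Cps1, carbamoyl phosphate synthetase, which brings ammonia into the cycle, read 40663 in L-Lpcat3 KO and 40894 in Flox/Flox, a log2 ratio of -0.01. Arg1, the arginase that releases urea, read 34184 in L-Lpcat3 KO and 32957 in Flox/Flox, a log2 ratio of 0.05. Of 13 amino acid transporters 10 were below 0, with a median of -0.08, but 7 were below 0 by the mean of their probe sets, with a median of -0.04. Slc38a3, a glutamine carrier, read 23489 in L-Lpcat3 KO and 27274 in Flox/Flox, a log2 ratio of -0.22, but its other probe set gave 0.45, so no direction can be given for it.

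Of the genes known to answer to fasting, the gluconeogenic list, with targets of FoxO and cAMP, lay around 0, with a median of -0.03 over 12 genes, 6 above and 6 below 0. That median turned to 0.12 over the 5 genes with a second probe set, so it has no settled sign. Pck1, which makes phosphoenolpyruvate for glucose production, read 29118 in L-Lpcat3 KO and 31084 in Flox/Flox, a log2 ratio of -0.09, but its 2 other probe sets gave 0.01 and 0.12, so its sign is not settled. Fbp1, fructose-1,6-bisphosphatase, also stood at -0.09. Irs2, an insulin receptor substrate that rises with fasting, was the only one of the 12 past 1.5-fold, with 104 in L-Lpcat3 KO and 164 in Flox/Flox, a log2 ratio of -0.66 from dim signals.

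Among PPARα targets, which carry the fatty acid side of the fasting response, all 9 measured genes were above 0, with a median of 0.25, and 4 were at least 1.5-fold higher. For all measured genes, 49.3% were below 0 and 4.01% at least 1.5-fold higher. The list was chosen with earlier results of these data known, so the shared sign is a description only. Cyp4a14, a fatty acid omega-hydroxylase, read 15684 in L-Lpcat3 KO and 3507 in Flox/Flox, a log2 ratio of 2.16. Vnn1, the pantetheinase vanin-1, read 6197 in L-Lpcat3 KO and 3252 in Flox/Flox, a log2 ratio of 0.93. Acot1, a cytosolic acyl-CoA thioesterase, read 3821 in L-Lpcat3 KO and 2437 in Flox/Flox, a log2 ratio of 0.65. The remaining one, Fgf21, a hormone of fasting, was named after its values were seen, with 236 in L-Lpcat3 KO and 53.2 in Flox/Flox, the second below the floor. Fgf21 thus counted as measured only through its value in L-Lpcat3 KO. That fixed its sign in advance, so it adds nothing to the counts of this list. The brightest of the list, Plin2, a lipid droplet coat protein, stood at 0.09. Over the 3 PPARα targets that have a second probe set, those probe sets gave a median of -0.14, and 7 of the 9 were above 0 by the mean of their probe sets.

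Glucocorticoid targets, the list closest to the control of Tat and Tdo2, had a median of 0.10 over 11 genes, 7 above 0. Over the 4 with a second probe set, those probe sets gave a median of 0.32. The members of this list that were past 1.5-fold lay on opposite sides. Dusp1, a MAP kinase phosphatase, read 4658 in L-Lpcat3 KO and 2746 in Flox/Flox, a log2 ratio of 0.76. Lcn2, which is also an acute-phase protein, read 938 in L-Lpcat3 KO and 4028 in Flox/Flox, a log2 ratio of -2.10. Mt1 and Mt2, the metallothioneins and the brightest genes of the list, stood at -0.08 and -0.01, but the other probe set of Mt1 gave 0.39, so its sign is not settled. Genes of feeding and insulin had a median of -0.12 over 10 genes (0.05 over the 6 with a second probe set), 7 below 0 and 3 above. None of the 10 was 1.5-fold apart. The 2 brightest were among those above 0: Thrsp, a lipogenic nuclear protein, at 0.16 and Me1, malic enzyme, at 0.29.

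**Figure D3:**
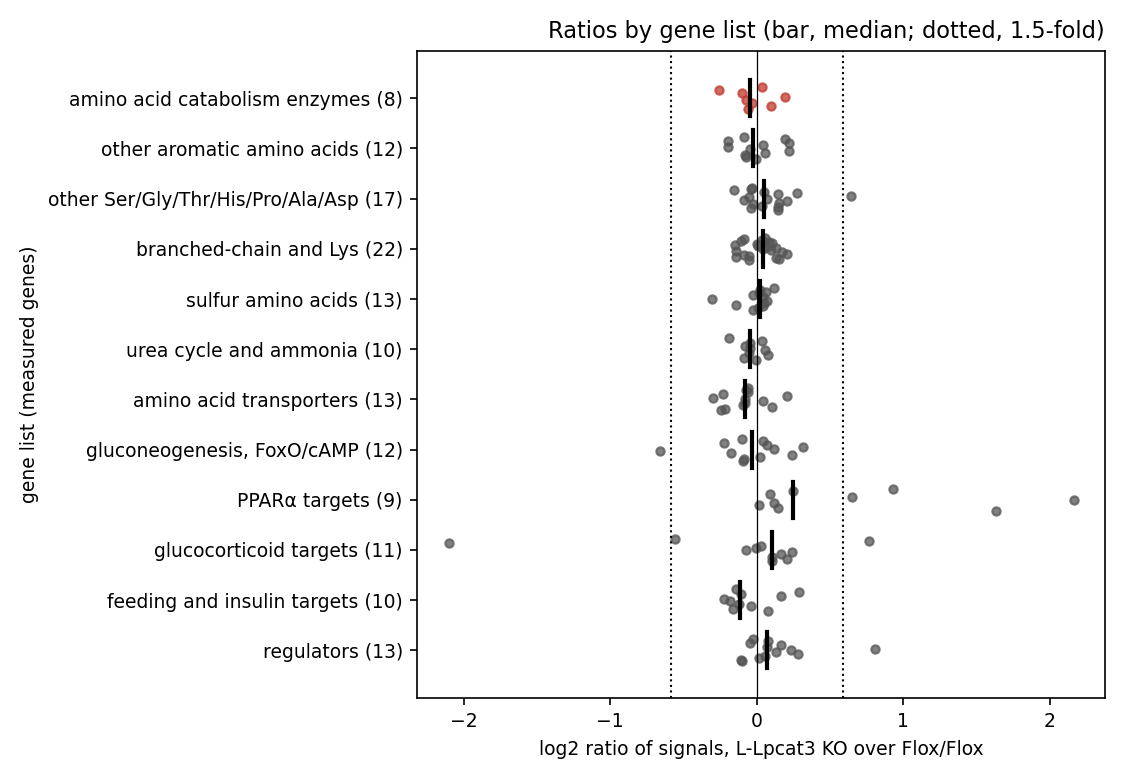
Log2 ratio of signals, L-Lpcat3 KO over Flox/Flox, of every measured gene (points, 1 per gene) in the amino acid catabolism enzymes (red, top) and in related lists, with the number of measured genes in brackets, a black bar at each median and dotted lines at 1.5-fold. By brightest probe set, the amino acid lists, the urea cycle list and the transporters lie between the dotted lines but for Dao. The PPARα targets reach 2.16 and the glucocorticoid targets -2.10.

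The transcription factors and receptors listed as regulators of these enzymes had a median of 0.07 over 13 genes, 9 above 0. Over the 8 with a second probe set, those probe sets gave a median of -0.05, with 2 above 0 and 6 below. Hnf4a, a master regulator of hepatocyte genes, read 17086 in L-Lpcat3 KO and 18389 in Flox/Flox, a log2 ratio of -0.11, with its 2 other probe sets at -0.18 and 0.00. Nr3c1, the glucocorticoid receptor, named for its role here, read 2256 in L-Lpcat3 KO and 2424 in Flox/Flox, a log2 ratio of -0.10, and its 3 other probe sets gave -0.51 to -0.17. Onecut1, a liver-enriched factor, was the one past 1.5-fold, with 433 in L-Lpcat3 KO and 247 in Flox/Flox, a log2 ratio of 0.81, while its other probe set gave 0.33.

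The makeup of the 2 pools bears on hepatocyte transcripts, and in whole liver fewer cells of a type and less RNA per cell cannot be told apart. The 9 measured hepatocyte markers had a median of -0.02 (0.02 under quantile normalization and under loess), with a summed signal of 375319 in L-Lpcat3 KO and 383718 in Flox/Flox. By brightest probe set, all 12 Kupffer cell and macrophage markers were below 0, from -0.54 to -0.06, with a median of -0.24. Their summed signal was 11208 in L-Lpcat3 KO and 12861 in Flox/Flox. Of all measured genes 49.3% were below 0. The 2 other probe sets of C1qb gave -0.43 and 0.16. The lowest marker, Timd4, was dim, with 133 in L-Lpcat3 KO and 194 in Flox/Flox. C1qb and Timd4 were named after their values were seen. Of the 10 endothelial markers 8 were above 0 by brightest probe set, with a median of 0.22. The summed signal of the 10 was 10215 in L-Lpcat3 KO and 8679 in Flox/Flox. Below 0 were Pecam1 at -0.24 and Cdh5 at -0.38. Other probe sets of Fcgr2b gave -0.12 to 0.51, and that of Lyve1 gave 0.00, so the direction was not uniform. Pecam1, Cdh5 and Lyve1 were named after their values were seen. Stellate markers had a median of 0.04 over 8 genes, 6 above 0 and 2 below. Among them Col3a1 was past 1.5-fold, with 1151 in L-Lpcat3 KO and 1758 in Flox/Flox, a log2 ratio of -0.61. The other marker lists were dim or short, and their medians depended on the floor and the probe set. Neutrophil markers had a median of -0.12 over 7 genes, which became -0.53 with the floor at the 25th percentile. The 4 measured bile duct markers had a median of 0.34, which became -0.03 over the 2 with a second probe set and 0.54 over 6 with no floor. The 4 measured lymphocyte markers had a median of -0.10, which became -0.74 over 8 under the 25th percentile floor and 0.08 when _s_at and _x_at probe sets were left out. Of 11 markers of pancreas, kidney and muscle 3 were measured, with a median of 0.22, and the 1 left with the floor at the 75th percentile stood at -0.31. Whether these shifts had a part in the ratios of the enzymes was not tested. Reference genes had a median of -0.01 over 7 genes, 3 above 0 and 4 below. That median became -0.12 over the 3 with a second probe set and -0.05 when _s_at and _x_at probe sets were left out. The brightest, B2m and Rplp0, stood at -0.18 and -0.12. The 2 other probe sets of Pgk1, named after its values were seen, gave -0.05 and 1.97.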

How the data were processed

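Liver RNA of 5 pooled mice per genotype was hybridized to 1 Affymetrix mouse genome array for L-Lpcat3 KO and 1 for Flox/Flox. For each array the authors deposited a signal intensity of every probe set, computed with MAS5 per the submitters' processing notes (version not given in the sources used here). Both arrays had the same trimmed mean (2% off each end). Of 45101 probe sets, 64 were controls, 34945 had 1 gene symbol, 932 had several and 9160 were unnamed here; the last 2 kinds were not used. Symbols were updated by Entrez ID through RefSeq. Log2 was taken after signals below the floor (76.4) were raised to it, and a gene took the value of its brightest probe set. With 1 array per genotype no test was run. Ratios were described by sizes of 1.5-fold and beside the 500 genes nearest in signal. A simulation with known changes was used to test the scripts (Python 3.11.15, numpy 2.4.6, pandas 2.3.3, statsmodels 0.14.6, matplotlib 3.10.9). The number of arrays limits the precision.

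The members and gene lists were chosen with earlier results of these data known. Genes were named by rule: each member with every probe set, Lpcat3, measured paralogs of the members, and from each list the 2 brightest genes and up to 4 of the largest ratios among those at least 1.5-fold apart and above the floor on both arrays. Not every gene the rule allows was described, and genes outside it are marked as such where they stand. The alternatives changed the scaling of the arrays, the floor and the choice of probe set.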

Additional observations from a re-analysis of the deposited data

How the results depend on the processing

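No enzyme passed 1.5-fold under any of the 10 alternatives, which changed the scaling (median centring, quantile, loess), the floor (the 25th or 75th percentile, none, or a pseudocount of 50) or the probe set of a gene (mean, none ending in _s_at or _x_at, second brightest). The ratios of the members ranged over them from -0.06 to -0.02 for Tat, 0.09 to 0.13 for Hpd, -0.30 to 0.02 for Hgd, -0.08 to -0.01 for Tdo2, 0.19 to 0.32 for Gpt, -0.10 to -0.09 for Got1, -0.25 to -0.24 for Hal and 0.04 to 0.05 for Prodh. Hgd was below 0 but under quantile normalization. Every main probe set lay above the highest floor used (386.7), so changing or dropping the floor could not move its ratio. Tat, Hpd, Got1, Hal and Prodh have 1 probe set each, so the choice of probe set could not move them either. Their narrow ranges reflect only the scaling and the pseudocount. The third probe set of Tdo2, at 0.10, entered only the mean. With the second brightest probe set, which only Hgd, Tdo2 and Gpt have, 2 of 3 genes were below 0 in place of 5 of 8, because fewer genes had a value. The gluconeogenic list, at -0.03, stood at 0.02 with the floor at the 75th percentile, 0.02 with the mean of probe sets, 0.03 without those ending in _s_at or _x_at and 0.12 with the second brightest. With the second brightest probe set the medians also turned to 0.05 for feeding, -0.05 for regulators, -0.04 for sulfur, 0.03 for pericentral and -0.14 for PPARα targets. The glucocorticoid median became 0.32 and that of the reference genes -0.12. Medians of the dim marker lists moved with the floor, neutrophil to -0.53 and lymphocyte to -0.74 at the 25th percentile. No paired analysis was possible because each genotype has 1 array, and for the same reason no replicate could be left out. Signal over background limits the dim probe sets, here the second of Hgd.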
